A study of Mus musculus with 12 samples.

Results

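The genes described here encode the colony-stimulating factors and their receptors: 3 secreted factors (Csf1, Csf2 and Csf3) and 4 receptor chains (Csf1r, Csf2ra, Csf2rb and Csf3r), which makes 7 of the 54532 genes listed in the count files. They were chosen by name for belonging to 1 family of growth factors, not by a measured value. The cells were bone marrow monocytes of mice, sorted as CD11b+Ly6Chi, a surface profile of classical inflammatory monocytes. RNA-seq libraries were made from 4 groups of 3: mice given 300 mM succinate for 7 days whose monocytes were then cultured with lipopolysaccharide (LPS, a bacterial product sensed by Toll-like receptor 4) for 4 h, mice without succinate whose monocytes had the same LPS culture, succinate mice with unstimulated monocytes, and control mice with unstimulated monocytes. The labels give no strain, sex, age, LPS dose or number of animals per library, nor whether the 3 libraries within each group are from different animals. The p-values below thus rest on the spread among these samples alone, which may be technical.

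Colony-stimulating factors take their names from the blood cell colonies that grow from marrow when they are added. M-CSF, the product of Csf1, signals through the receptor tyrosine kinase that Csf1r encodes and keeps monocytes and macrophages alive. GM-CSF, from Csf2, binds an alpha chain (Csf2ra) that pairs with a beta chain (Csf2rb) shared with the receptors of IL-3 and IL-5, and G-CSF, from Csf3, binds the single-chain receptor Csf3r, best known for driving neutrophil production.

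The libraries held 15975882 to 18306747 counts each. Levels are CPM (each count divided by its library's total and brought to 1 shared scale, with totals corrected by trimmed means), changes are log2 fold changes ± SE, and adjusted p-values come from edgeR's quasi-likelihood test over the 14324 genes that passed the filter on low counts, with a call below 0.05. All 8 of 8 monocyte markers had counts in every group, with a summed level of 5537 to 7604 CPM in succinate libraries with LPS, 7516 to 8296 CPM in control libraries with LPS, 5744 to 8867 CPM in unstimulated succinate libraries and 8595 to 9063 CPM in unstimulated control libraries. All 12 of 12 markers of neutrophils and their precursors had counts too, mostly in granule genes such as Ngp and Camp, and their summed level was 11845 to 13012 CPM in succinate libraries with LPS, 9995 to 13908 CPM in control libraries with LPS, 7317 to 8604 CPM in unstimulated succinate libraries and 7779 to 10063 CPM in unstimulated control libraries. The neutrophil surface marker Ly6g itself averaged 6.46 CPM in succinate libraries with LPS, 7.73 in control libraries with LPS, 4.25 in unstimulated succinate libraries and 3.87 in unstimulated control libraries. A set of 5 genes (S100a4, Rpl24, Rpl10-ps3, Gm14303 and Rpl35a-ps2) split the libraries into 5 with a mean log2 CPM of 3.19 to 4.03 and 7 with 0.82 to 1.46. The cut was made at the widest gap in that mean, a rule that gives 2 classes in any data. In the high class were unstimulated replicates 2 and 3 of succinate mice and of control mice, together with control LPS replicate 3, but no succinate library with LPS.

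The 3 factor genes did not move in 1 direction with LPS. Csf1 fell in both kinds of mice, and Csf2 and Csf3, at or near 0 in unstimulated cells, were higher with LPS in both. Among the receptor chains Csf2rb fell in succinate mice and Csf2ra rose in control mice. The direction was the same in both kinds of mice for each of the 3 factors. Among the 4 receptor chains the largest log2 change with LPS was -0.56, that of Csf2rb in succinate mice. Over all tested genes 30.2% were called in succinate mice (14.1% rose and 16.2% fell) and 30.1% in control mice (15.3% rose and 14.8% fell), against 4 of 7 members in each. Of those 4, Csf2 and Csf3 passed the filter on low counts only through their LPS libraries, where they are high, so nothing is read from the members' count. The median log2 change of the 7 members was -0.0026 in succinate mice and 0.0056 in control mice, beside -0.02 and -0.0036 over all genes. Csf2 and Csf3 are among those 7, so nothing is read from the median either. LPS and unstimulated libraries did not overlap for 2 members that were higher and 1 that was lower in succinate mice, beside 19.9% and 21.5% of all genes, and for 3 that were higher and 1 that was lower in control mice, beside 22.3% and 23.2%, and Csf2 and Csf3 were among the higher ones in both.

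Csf1 (ENSMUSG00000014599, GRCm38 chr3:107741048-107760469, minus strand, protein coding) had 119, 160 and 171 CPM in succinate libraries with LPS, against 866, 821 and 842 CPM in unstimulated succinate libraries. In control mice it had 265, 174 and 148 CPM with LPS, against 1015, 929 and 1059 CPM without. Every LPS library lay below every unstimulated one, by a wide margin. Csf1 fell by 2.49 ± 0.19 on the log2 scale in succinate mice (adjusted p = 1.63e-07), which is 5.63-fold lower with LPS, and fell by 2.35 ± 0.19 in control mice (adjusted p = 2.65e-07), 5.11-fold lower. Both calls held in all 22 settings of filter, scaling, tool, covariate and left-out library.

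Csf2 (ENSMUSG00000018916, chr11:54247271-54249667, minus strand) encodes GM-CSF. It had 31, 29 and 22 counts in succinate libraries with LPS and 4, 17 and 5 counts in control libraries with LPS, against 0 counts in all 6 unstimulated libraries. A count of 0 over 3 libraries allows up to 0.0580 CPM in unstimulated succinate mice and 0.0601 CPM in unstimulated control mice, for counting error only. Against that floor of 3 counts over the group, Csf2 pooled over the LPS libraries was 25.5-fold higher in succinate mice and 9.13-fold higher in control mice. These values bound the unstimulated level only and leave out the spread among the LPS libraries. The gene passed the filter only through its LPS libraries, so it had to differ between LPS and unstimulated cells, and no p is given for that difference. An exon of Csf2 overlaps Gm12223 on the opposite strand, which had 1 count in all 12 libraries together.

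Csf3 (ENSMUSG00000038067, chr11:98701263-98703629, plus strand) encodes G-CSF. It had 145, 181 and 196 counts (7.58, 10.2 and 10.5 CPM) in succinate libraries with LPS, against 3, 4 and 0 counts in unstimulated succinate libraries. In control mice it had 72, 128 and 184 counts (4.39, 8.31 and 11.8 CPM) with LPS, against 4, 0 and 2 counts without. The groups did not overlap in either kind of mouse. The fitted log2 difference was 6.05 ± 0.58 in succinate mice and 6.003 ± 0.60 in control mice. Csf3 too passed the filter only through its LPS libraries, so these are descriptions, with no p. The size rests on single counts in unstimulated cells: it was 6.65 without unstimulated succinate replicate 2 and 5.48 without replicate 3 in succinate mice, and 6.89 without unstimulated control replicate 1 and 5.47 without replicate 2 in control mice. Within the low and high library classes the control value was 4.75 and 7.43.

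**Figure D1:**
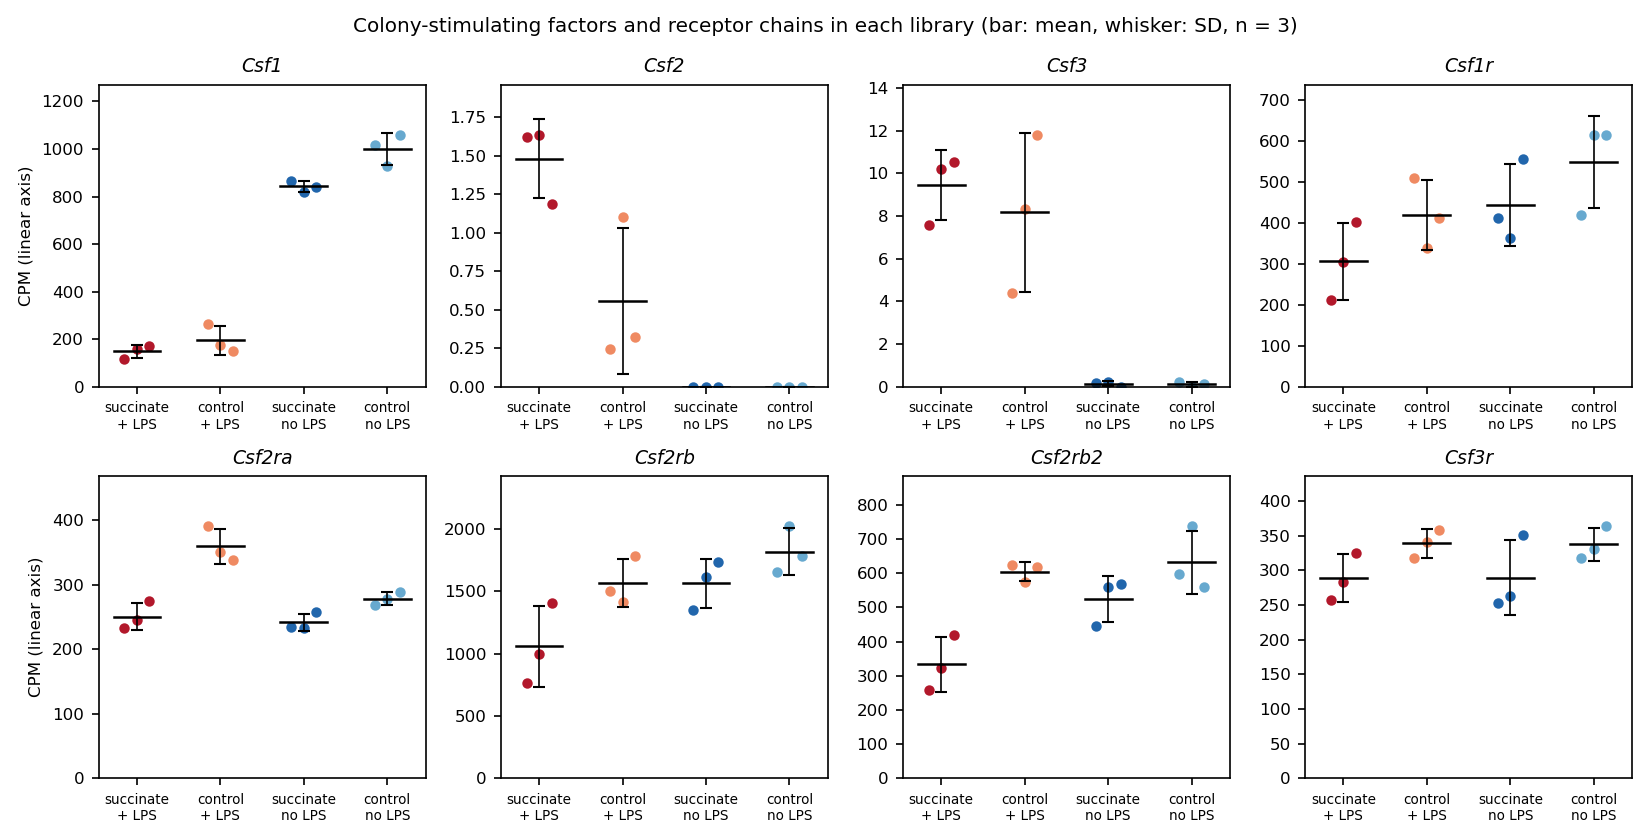
Level of each gene in each library, in CPM on a linear axis from 0 (dots: libraries, bar: mean, whisker: SD, n = 3), with the near-identical copy Csf2rb2 beside Csf2rb. Csf1 is low and Csf2 and Csf3 are high in the 6 LPS libraries, and the receptor panels show groups that lie close together.

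The 3′ untranslated regions of Csf2 and Csf3 carry AU-rich stretches, repeats of the pentamer ATTTA that are known as binding sites of proteins that shorten the life of cytokine mRNAs. The densest 30 bases of each are shown because these are the 2 factors that were higher with LPS, read 5′ to 3′ from GENCODE M21 transcripts with each pentamer in capitals.
Csf2, from base 230 of its 3′ untranslated region: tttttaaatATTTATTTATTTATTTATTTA
Csf3, from base 24 of its 3′ untranslated region: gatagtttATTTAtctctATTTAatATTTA
The Csf2 stretch holds 5 pentamers that overlap by 1 base, and the Csf3 stretch holds 3. Over the whole region Csf2 has 9 pentamers in 317 bases and 4 copies of the longer nonamer TTATTTATT, Csf3 has 6 pentamers and 0 nonamers in 669 bases, Csf1 has 4 pentamers in 2111 bases and Csf1r has 3 in 1669 bases. Csf2ra, Csf2rb and Csf3r have 0. The transcript strand alone was searched and overlapping matches were counted. Of 21022 genes with such a region (median 961 bases), 35.7% had 3 or more pentamers and 7.66% had the nonamer. These matches describe the letters only: no decay was measured.

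Scaled per kilobase of exon, which allows genes to be roughly compared with each other, Csf1 was the leading factor in every group, but by different margins. The length joins all annotated exons of a gene, whichever of its transcripts were present, so levels per kb depend on that choice. It made up 76.7% ± 1.53 of the summed CPM per kb of the 3 factors in succinate libraries with LPS and 83.9% ± 8.86 in control libraries with LPS, against 99.9% ± 0.0547 in unstimulated succinate libraries and 99.96% ± 0.0426 in unstimulated control libraries (SD, n = 3). Csf3 held 17.9%, 18.3% and 18.1% of that sum in succinate libraries with LPS, against 5.80%, 14.6% and 22.6% in control libraries with LPS. Csf2 held 6.77%, 5.18% and 3.59% against 0.569%, 3.44% and 1.09% in the same groups, which do not overlap. These Csf2 shares rest on 22 to 31 counts in succinate libraries with LPS and 4 to 17 in control libraries with LPS. Csf2 passed the filter on low counts mainly through those succinate libraries, where it is high. Its shares are therefore a description, with no p.

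Csf1r (ENSMUSG00000024621, chr18:61100598-61132149, plus strand), the M-CSF receptor, did not pass the test in any comparison with the filter and all libraries used here. It had 213, 304 and 402 CPM in succinate libraries with LPS, against 412, 363 and 556 CPM in unstimulated succinate libraries. With LPS control libraries had 510, 338 and 412 CPM, against 420, 615 and 616 CPM without. The groups overlapped in both cases, with log2 differences of -0.53 ± 0.23 (adjusted p = 0.0950) in succinate mice and -0.39 ± 0.23 (adjusted p = 0.232) in control mice. With no filter on low counts it was called lower with LPS in succinate mice (-0.51, adjusted p = 0.00156) and in control mice (-0.41, adjusted p = 0.0209), and without succinate LPS replicate 3 in succinate mice (-0.78, adjusted p = 0.0238). The ratio of Csf1 to Csf1r per kb was 0.609, 0.574 and 0.464 in succinate libraries with LPS, against 2.30, 2.47 and 1.65 in unstimulated succinate libraries, and 0.568, 0.561 and 0.394 in control libraries with LPS, against 2.64, 1.65 and 1.88 in unstimulated control libraries. Ligand mRNA exceeded receptor mRNA per kb in all 6 unstimulated libraries and in none of the 6 LPS libraries (exact two-sided permutation p = 0.1 in each kind of mouse, the smallest possible). An exon of Csf1r overlaps Hmgxb3 on the opposite strand, and whether counting used strand is not given in the sources used here.

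Csf2ra (ENSMUSG00000059326, chr19:61223957-61228429, minus strand), the alpha chain that binds GM-CSF, had 232, 245 and 274 CPM in succinate libraries with LPS, against 235, 233 and 257 CPM in unstimulated succinate libraries. Those groups overlapped and differed by 0.05 ± 0.10 (adjusted p = 0.742). In control mice it had 390, 351 and 339 CPM with LPS, against 269, 278 and 288 CPM without, with no overlap. Csf2ra rose by 0.37 ± 0.10 in control mice (adjusted p = 0.0119), 1.29-fold. That call was lost with no filter on low counts (adjusted p = 0.0536) and within the low (0.49, adjusted p = 0.0766) and high (0.26, adjusted p = 0.383) library classes alone.

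Csf2rb (ENSMUSG00000071713, chr15:78325752-78353847, plus strand), the shared signalling chain, had 766, 997 and 1409 CPM in succinate libraries with LPS, against 1349, 1611 and 1731 CPM in unstimulated succinate libraries. It fell by 0.56 ± 0.18 (adjusted p = 0.0311), though the highest LPS library lay above the lowest unstimulated one. In control mice it had 1505, 1413 and 1782 CPM with LPS, against 1652, 2020 and 1781 CPM without (-0.21 ± 0.18, adjusted p = 0.428). The call in succinate mice was made in 15 of 22 settings. The library class as a covariate ended it (-0.38, adjusted p = 0.172), as did a fit of the compared groups alone (adjusted p = 0.0764) and leaving out any 1 of 5 libraries: unstimulated control replicate 3 (adjusted p = 0.0539), unstimulated succinate replicate 2 (0.0774) or 3 (0.0994), or succinate LPS replicate 1 (0.128) or 2 (0.105).

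The mouse carries a second beta chain gene, Csf2rb2 (ENSMUSG00000071714, chr15:78282507-78305721, minus strand), whose product is known to pair with the IL-3 receptor alone. The coding sequences are identical at 95.2% of 2631 aligned bases, with a longest identical run of 242 bases, so reads of the 2 genes may have been split between them and both values are uncertain. Of the 50-base stretches of Csf2rb exons, 12.3% also occur in Csf2rb2, and 2.30% of its 150-base stretches do. The 60 coding bases where they differ most are shown as an example of a stretch where reads can be told apart. They are read 5′ to 3′ from GENCODE M21 transcripts, with the 13 differing bases in capitals.
Csf2rb, coding bases 304 to 363: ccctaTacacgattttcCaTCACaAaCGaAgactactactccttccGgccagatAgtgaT
Csf2rb2, coding bases 307 to 366: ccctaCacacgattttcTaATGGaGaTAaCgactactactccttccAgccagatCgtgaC
Csf2rb2 had 258, 322 and 419 CPM in succinate libraries with LPS, against 446, 559 and 569 CPM in unstimulated succinate libraries, and fell by 0.66 ± 0.16 (adjusted p = 0.00666). In control mice the difference was -0.06 ± 0.16 (adjusted p = 0.816). With both genes summed, an alternative chosen after seeing the data, the beta chains fell by 0.59 ± 0.18 in succinate mice (adjusted p = 0.0217) and differed by -0.17 ± 0.18 in control mice (adjusted p = 0.516).

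Csf3r (ENSMUSG00000028859, chr4:126024550-126044440, plus strand), the G-CSF receptor, had 257, 284 and 325 CPM in succinate libraries with LPS, against 253, 263 and 351 CPM in unstimulated succinate libraries. In control mice it had 317, 341 and 358 CPM with LPS, against 317, 331 and 363 CPM without. The groups overlapped almost entirely, with 95% intervals of the log2 difference of -0.29 to 0.28 in succinate mice and -0.28 to 0.29 in control mice. The summed neutrophil markers were higher with LPS in succinate mice, without overlap, but overlapped in control mice. Of the 12 markers, 4 rose and 2 fell with LPS in each kind of mouse. Beside them, 14.1% of all genes rose and 16.2% fell in succinate mice, and 15.3% rose and 14.8% fell in control mice. The part of these markers in the results was not tested.

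Whether LPS acted differently in the 2 kinds of mice was tested as an interaction, where 0 of 6 members passed edgeR's test and 0% of all genes did. Csf2, at 0 counts in both unstimulated groups, has no interaction. At an unadjusted p below 0.05 there was 1 member, beside 3.91% of all genes, and DESeq2 and limma-voom called 0, beside 0.0209% and 0% of all genes. That member was Csf2ra, with an interaction of -0.32 ± 0.14 (unadjusted p = 0.0433 and adjusted p = 0.9999 in edgeR). For Csf2rb it was -0.35 ± 0.26 (adjusted p = 0.9999). The calls of Csf2ra in control mice alone and of Csf2rb in succinate mice alone are therefore not shown to differ between the mice.

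**Figure D2:**
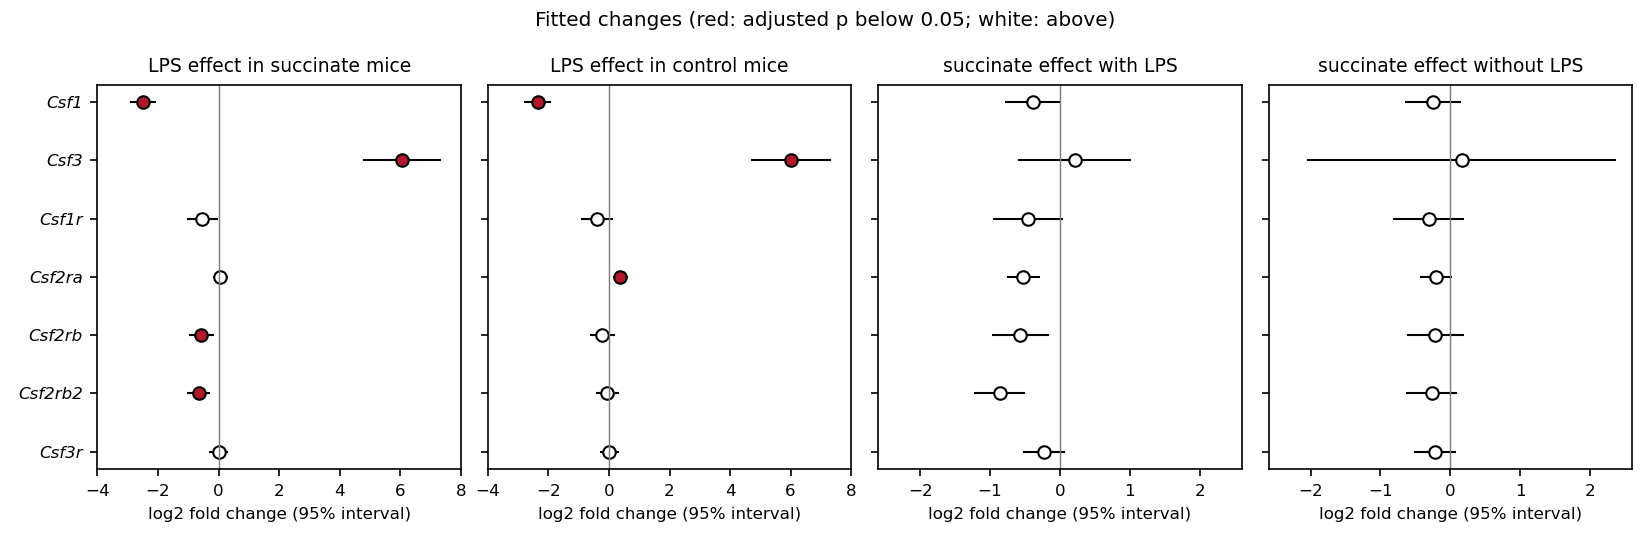
Log2 fold change with its 95% interval for each gene in the 2 LPS and the 2 succinate comparisons, from edgeR (red: adjusted p below 0.05, white: above). Csf2 is left out because its unstimulated libraries had 0 counts, and the succinate panels, on a narrower axis, hold no red point. Csf3 is red in both LPS panels but passed the filter on low counts only through its LPS libraries. Its red points are therefore not read as tests.

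Levels per kb also place the factors among their receptors. Csf2rb led in every group. With LPS it stood first with 145 ± 44.8 CPM per kb in succinate libraries and 215 ± 26.4 in control libraries, against 215 ± 26.9 in unstimulated succinate libraries and 250 ± 25.6 in unstimulated control libraries (SD, n = 3). Csf1 came next to it among the 7 genes in unstimulated cells, at 160 ± 4.26 CPM per kb in succinate mice and 189 ± 12.6 in control mice, above every Csf2ra, Csf3r and Csf1r library. With LPS Csf1 lay below all 4 receptor chains, at 28.4 ± 5.16 CPM per kb in succinate mice and 37.1 ± 11.6 in control mice, with no overlap with Csf1r. Csf2ra and Csf3r overlapped in 3 of the 4 groups and stood apart in control libraries with LPS, where Csf2ra had 125 ± 9.43 and Csf3r 93.8 ± 5.66 CPM per kb. Csf3 and then Csf2 were lowest in every group. Csf3 had 6.68 ± 1.15 and Csf2 1.85 ± 0.321 CPM per kb in succinate libraries with LPS, against 5.78 ± 2.62 for Csf3 and 0.695 ± 0.595 for Csf2 in control libraries with LPS.

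**Figure D3:**
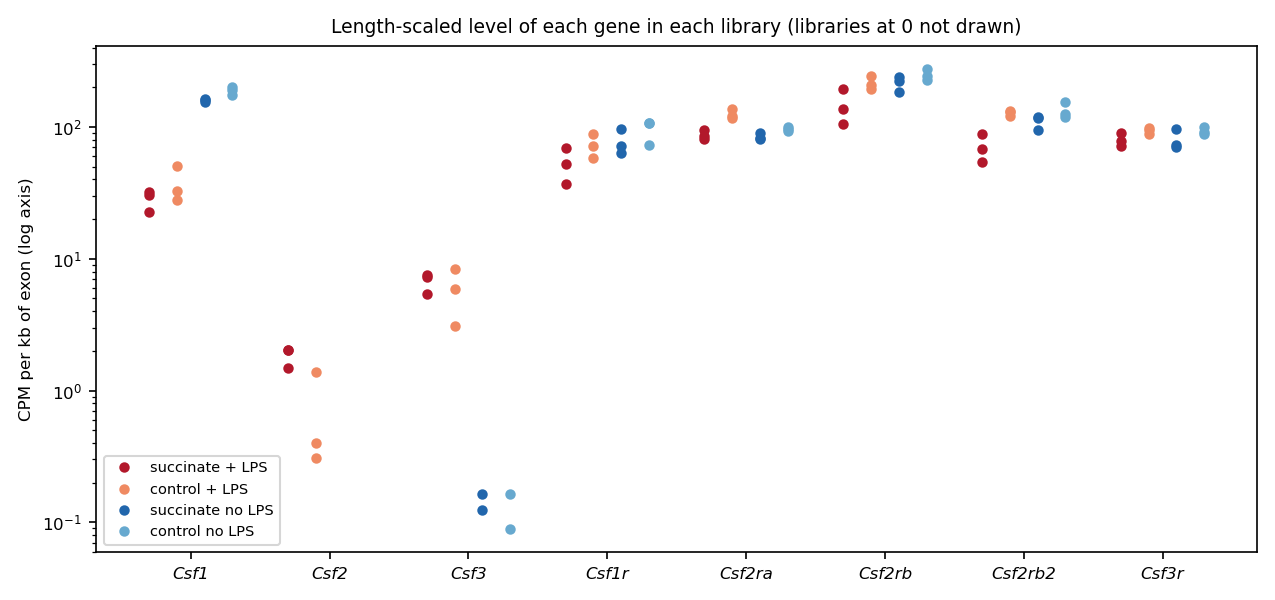
CPM per kb of exon for each gene in each library, on a log axis (dots: libraries, coloured by group; libraries at 0 are not drawn). Csf1 sits among or above the receptor chains in unstimulated libraries and below all of them with LPS, while Csf3 and Csf2 are the lowest in every group.

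Within a library, the alpha chain stood higher relative to the beta chain after LPS. The ratio of Csf2ra to Csf2rb per kb was 0.769, 0.623 and 0.493 in succinate libraries with LPS, against 0.441, 0.366 and 0.377 in unstimulated succinate libraries. It was 0.657, 0.629 and 0.482 in control libraries with LPS, against 0.412, 0.349 and 0.410 in unstimulated control libraries. The LPS libraries were all above the unstimulated ones in both kinds of mice (exact two-sided permutation p = 0.1 each, the smallest possible), and the succinate and control groups overlapped with LPS (p = 0.8) and without it (p = 1.0). A ratio shows unequal change of the 2 chains, and neither chain's own change.

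**Figure D4:**
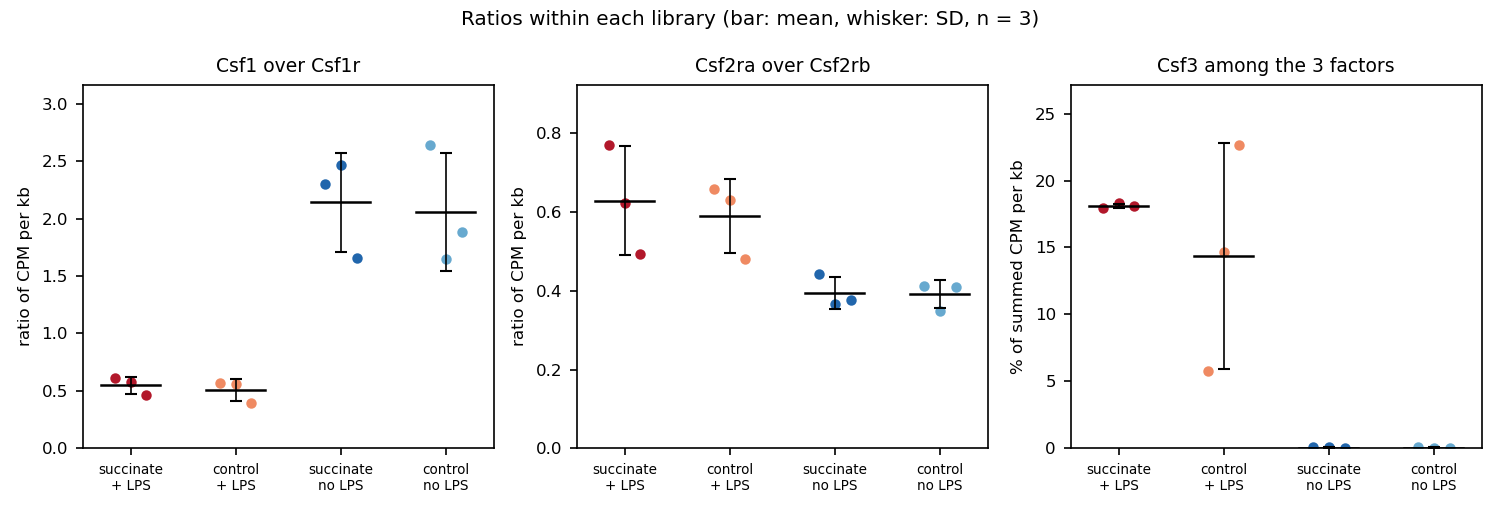
Ratio of Csf1 to Csf1r, ratio of Csf2ra to Csf2rb, and percent of the 3 factors held by Csf3, all per kb within each library, by group (dots: libraries, bar: mean, whisker: SD, n = 3). The first ratio is below 1 in every LPS library, the second is higher with LPS in both kinds of mice, and the Csf3 share is 17.9% to 18.3% in succinate libraries with LPS.

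No member passed edgeR's test between succinate and control mice. With LPS, 0 of 7 were called, beside 0.0628% of all genes. There were 3 members at an unadjusted p below 0.05, beside 11.7% of all genes. Csf2 was among those 3 and passed the filter on low counts mainly through its succinate libraries with LPS, where it is high. Nothing is therefore read from that count. DESeq2 and limma-voom each called 1, Csf2ra, beside 3.32% of all genes in DESeq2 and 0.237% in limma-voom. The median log2 difference of the 7 members was -0.39, beside -0.01 over all genes. Csf2 is among those 7, so nothing is read from that median. The difference was above 0 for Csf2 and Csf3 and below 0 for Csf1 and all 4 receptor chains.

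Csf2ra came nearest. Its 232, 245 and 274 CPM in succinate libraries with LPS all lay below the 390, 351 and 339 CPM in control libraries with LPS, a difference of -0.52 ± 0.10 (95% interval -0.74 to -0.30, adjusted p = 0.0584). It passed in 8 of 22 settings, among them DESeq2 (adjusted p = 1.61e-04), limma-voom (0.0466), the stricter filter (0.0468) and the library class as a covariate (0.0351), and in the fits without control LPS replicate 3 (0.0442) or succinate LPS replicate 3 (0.0267). Within the low library class the difference was -0.56 (adjusted p = 0.119). Library size alone as the scaling moved the median of all genes to 0.11 and gave -0.40 for Csf2ra, still below 0.

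Csf2rb, at 766, 997 and 1409 CPM in succinate libraries with LPS and 1505, 1413 and 1782 CPM in control libraries with LPS, did not overlap either and differed by -0.57 ± 0.18 (adjusted p = 0.227). It was called in 2 of 22 settings, with no filter on low counts (adjusted p = 0.00424) and without succinate LPS replicate 3 (-0.83, adjusted p = 0.02998). Csf2rb2 differed by -0.86 ± 0.16 (adjusted p = 0.0547; called in 7 of 22 settings), from 258, 322 and 419 CPM in succinate libraries against 623, 574 and 617 CPM in control libraries. Summed, the beta chains differed by -0.64 ± 0.18 (adjusted p = 0.146). For Csf2, 31, 29 and 22 counts in succinate libraries with LPS stood against 4, 17 and 5 in control libraries with LPS, with no overlap. The fitted log2 difference was 1.41 ± 0.59. The gene passed the filter on low counts mainly through those succinate libraries, where it is high, so this is a description, with no p. Groups without overlap were thus found for 1 member that was higher, beside 6.95% of all genes, and for 2 that were lower, beside 10.2%. The higher one was Csf2, so nothing is read from it.

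The remaining members overlapped between the LPS groups. Csf1 differed by -0.39 ± 0.18 (adjusted p = 0.429), Csf1r by -0.46 ± 0.23 (adjusted p = 0.474; 0.0445 with no filter on low counts), Csf3r by -0.23 ± 0.13 (adjusted p = 0.545) and Csf3 by 0.21 ± 0.37 (adjusted p = 0.873). The intervals were -0.78 to 0.00 for Csf1 and -0.58 to 1.005 for Csf3, so changes of those sizes are not excluded by the test. In bulk samples fewer cells of a type and less RNA per cell cannot be told apart. Summed markers of T, NK and innate lymphoid cells were 80.1 to 132 CPM in succinate libraries with LPS and 131 to 197 CPM in control libraries with LPS, and those of B cells were 126 to 148 CPM in succinate and 73.8 to 131 CPM in control libraries with LPS. Mast cell, basophil and eosinophil markers summed to 28.8 to 51.9 CPM in succinate and 22.3 to 46.5 CPM in control libraries with LPS. Stromal and endothelial markers summed to 36.2 to 65.3 CPM in succinate and 41.4 to 60.6 CPM in control libraries with LPS, and dendritic cell markers to 24.2 to 26.1 CPM in succinate and 27.4 to 35.8 CPM in control libraries with LPS. All markers of these 5 lists had a count in each of these groups except the stromal marker Pdgfra, at 0 in both, and their part in the differences was not tested.

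Without LPS, where Csf2 had no count to test, 0 of 6 members were called by edgeR between succinate and control mice, beside 0% of all genes. There were 0 at an unadjusted p below 0.05, beside 3.73% of all genes, and 0 called by DESeq2 or limma-voom, beside 0.00698% and 0% of all genes. Csf1, at 866, 821 and 842 CPM in succinate libraries and 1015, 929 and 1059 CPM in control libraries, and Csf2ra, at 235, 233 and 257 CPM in succinate libraries and 269, 278 and 288 CPM in control libraries, were the 2 members whose groups did not overlap, both lower in succinate mice, beside 4.27% of all genes, and 0 were higher, beside 3.65%. Their differences were -0.25 ± 0.18 and -0.20 ± 0.10 (adjusted p = 0.958 each).

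Of 6 other ligands and chains of these receptors, 4 were nearly silent. Il3 had 0 counts over the 12 libraries, and Il34, Il5 and Il5ra had 4, 18 and 28 counts, too few to be tested. The other two were Csf2rb2, described above, and Il3ra. Il3ra, the alpha chain of the IL-3 receptor, averaged 23.4 CPM in succinate libraries with LPS, against 31.2 CPM in unstimulated succinate libraries, and fell by 0.42 ± 0.14 (adjusted p = 0.0383), while in control mice the difference was -0.12 ± 0.14 (adjusted p = 0.599).

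The genes around the receptors were looked at as lists, by counts and medians of the log2 change with LPS. The counts stand beside 14.1% of all genes that rose and 16.2% that fell in succinate mice, and 15.3% that rose and 14.8% that fell in control mice. Over the 8 lists together 53 of 83 tested genes were called in each kind of mouse, beside 30.2% of all genes in succinate mice and 30.1% in control mice. The lists were chosen with earlier results of these data known, so nothing is read from this total. Of 20 kinases, adaptors and STAT proteins that carry the receptors' signals, 8 rose and 2 fell in succinate mice (median 0.02), and 9 rose and 2 fell in control mice (median 0.10). Stat5a, the transcription factor best known for GM-CSF signals, averaged 193 CPM in succinate libraries with LPS, against 46.2 CPM in unstimulated succinate libraries, and 317 CPM in control libraries with LPS, against 48.8 CPM in unstimulated control libraries. It rose by 2.07 in succinate mice and by 2.70 in control mice. Jak2, the kinase bound to the beta chain, rose by 1.97 in succinate mice and by 2.36 in control mice. Its relative Tyk2 rose by 1.89 in succinate mice and by 1.98 in control mice.

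Of 12 inhibitors of receptor signalling, 6 rose and 2 fell in succinate mice (median 0.42) and 6 rose and 2 fell in control mice (median 0.43). Socs3, the feedback inhibitor of the G-CSF receptor, averaged 325 CPM in succinate libraries with LPS, against 14.9 CPM in unstimulated succinate libraries, and 438 CPM in control libraries with LPS, against 13.1 CPM in unstimulated control libraries. It rose by 4.45 in succinate mice and by 5.06 in control mice. Cish, a STAT5 target of the same family, rose by 3.59 in succinate mice and by 3.97 in control mice. The ubiquitin ligase gene Cblb rose by 0.72 in succinate mice and by 1.28 in control mice. Inpp5d, which encodes the lipid phosphatase SHIP1, fell, with -1.14 in succinate mice and -1.15 in control mice.

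Of 10 known STAT5 or STAT3 targets, 5 rose and 2 fell in succinate mice (median 0.35) and 5 rose and 1 fell in control mice (median 0.21). The survival kinase genes Pim1 and Pim2 rose, by 1.13 and 3.06 in succinate mice and by 1.41 and 3.15 in control mice. Myc, the growth regulator, rose by 2.57 in succinate mice and by 1.97 in control mice, and the repressor gene Bcl6 fell, with -1.09 in succinate mice and -0.85 in control mice. Of 12 transcription factors known to drive or bind the receptor genes, 3 rose and 7 fell in succinate mice (median -0.55) and 3 rose and 6 fell in control mice (median -0.50). Ets2 and Cebpd rose, by 1.99 and 1.09 in succinate mice and by 2.35 and 1.01 in control mice. Klf4, a factor of monocyte differentiation, fell, with -2.64 in succinate mice and -2.08 in control mice. The immediate early gene Egr1 fell too, with -1.84 in succinate mice and -2.97 in control mice.

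Of 13 factors known to drive the ligand genes after Toll-like receptor signals, 5 rose and 5 fell in succinate mice (median 0.17) and 7 rose and 5 fell in control mice (median 0.44). The NF-kB members Nfkb1, Nfkb2 and Relb rose, by 1.89, 1.79 and 1.58 in succinate mice and by 2.21, 2.04 and 1.66 in control mice, while the AP-1 member Fos fell, with -2.24 in succinate mice and -2.45 in control mice. Of 6 genes of the shedding machinery, which cleaves M-CSF or its receptor from the cell surface, 5 were tested, and Timp3 was too low. Of these, 2 rose and 0 fell in succinate mice (median 0.06) and 2 rose and 1 fell in control mice (median 0.16). Rhbdf2 and Rhbdf1, which carry the sheddase ADAM17 to the surface, rose by 0.57 and 1.28 in succinate mice and by 0.97 and 1.60 in control mice. The protease gene Adam10 had -0.15 in succinate mice (adjusted p = 0.247) and fell in control mice (-0.32, adjusted p = 0.0180). Frmd8, a partner of those carriers, had -0.33 in succinate mice and -0.16 in control mice and passed in neither.

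Of 9 RNA-binding proteins of cytokine mRNA decay, 1 rose and 3 fell in succinate mice (median -0.16) and 1 rose and 3 fell in control mice (median 0.09), again beside 30.2% and 30.1% of all genes called in either direction. Zfp36l2, Zfp36l1 and Khsrp, which bind AU-rich sites like those printed above, fell, with -2.27, -2.11 and -0.45 in succinate mice and -2.42, -2.52 and -0.36 in control mice. Zc3h12a, an endonuclease of cytokine mRNAs, rose by 1.78 in succinate mice and by 1.86 in control mice. Over all tested genes the median was -0.02 in succinate mice and -0.0036 in control mice. Between succinate and control mice edgeR called 0 of the 83 tested genes of these 8 lists, with or without LPS, and 0 in the interaction. At an unadjusted p below 0.05 there were 23 with LPS, beside 11.7% of all genes, 1 without, beside 3.73%, and 8 in the interaction, beside 3.91%. DESeq2 called 5 with LPS (Csf2rb2, Stat5a, Cebpb, Junb and Mcl1), beside 3.32% of all genes, and limma-voom 1 (Csf2rb2), beside 0.237%, names given after their values were seen, and both called 0 without LPS and in the interaction.

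**Figure D5:**
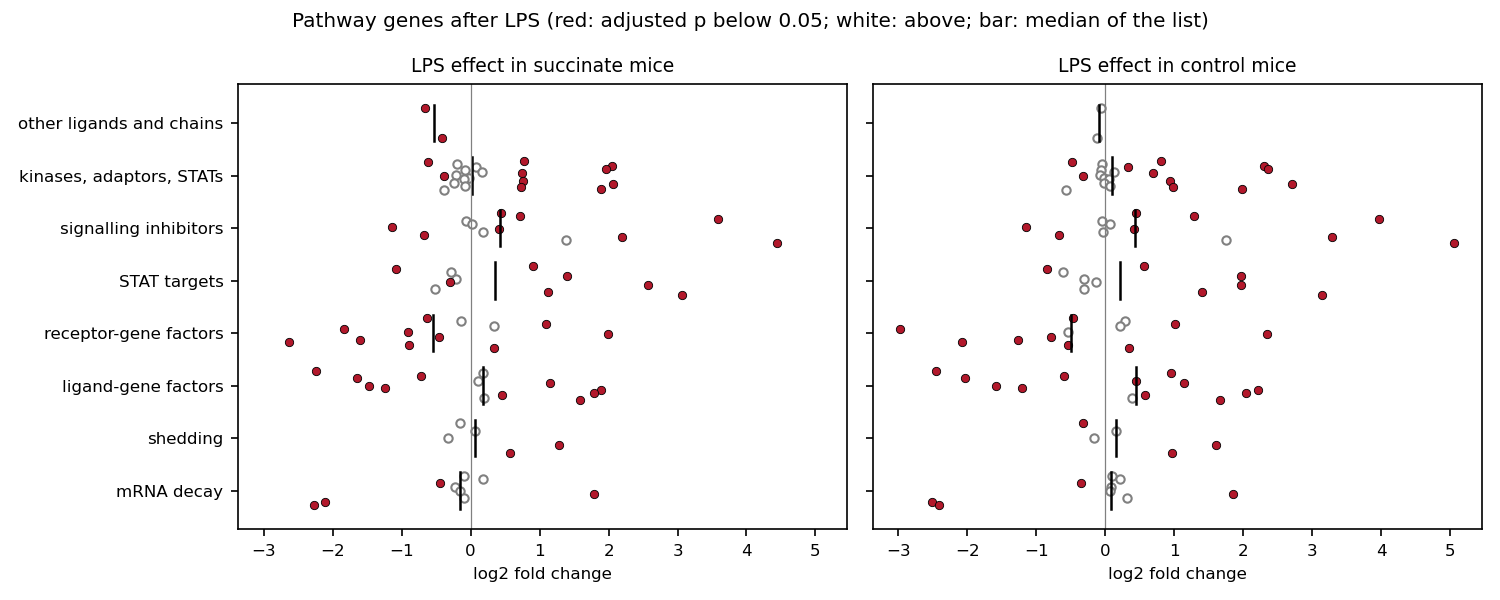
Log2 fold change with LPS of each tested gene of the 8 lists in succinate mice and in control mice, from edgeR (red: adjusted p below 0.05, white: above, bar: median of the list). The signalling inhibitors have medians of 0.42 and 0.43, and the factors of the receptor genes have medians of -0.55 and -0.50.

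The genes whose level ran most like each member's were found by the root-mean-square distance of log2 CPM, each centred on its own mean, over 12 libraries and 8125 candidate genes of at least 10 CPM. Nearest to Csf1 were Rasa3, Eepd1 and Soat1, at distances of 0.181, 0.209 and 0.213, where Csf1 itself varied with an SD of 1.31. Rasa3 averaged 46.5 CPM in succinate libraries with LPS and 57.6 CPM in control libraries with LPS, against 255 CPM in unstimulated succinate libraries and 306 CPM in unstimulated control libraries. Nearest to Csf3 were Ccl4, Socs3 and AA467197 (0.620, 0.636 and 0.667), distances that rest in unstimulated cells on the prior count of 2 added before the log. For Csf2, at 0 counts in all 6 unstimulated libraries, that prior count sets the profile and no likeness is given. Ccl4, a chemokine gene, averaged 524 CPM in succinate libraries with LPS and 599.6 CPM in control libraries with LPS, against 9.27 and 10.1 CPM in the unstimulated succinate and control libraries. Among the receptors, Csf1r ran nearest to Nsf, Mpv17l2 and Cyp4v3 (0.111, 0.142 and 0.149), Csf2ra to App, Pea15a and Washc5 (0.101, 0.103 and 0.103), Csf2rb to Camta2, Vps8 and its own copy Csf2rb2 (0.111, 0.126 and 0.135), and Csf3r to Vps52, Scand1 and Pcif1 (0.0547, 0.0557 and 0.0734). The receptors vary less than the factors, with SDs of 0.19 for Csf3r to 0.44 for Csf1r.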

How the data were processed

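The authors deposited raw read counts per gene, 1 table for each of 12 libraries, which are whole numbers and not normalised. Per the submitters' processing notes, Trim Galore was used and the build was mm10, and total RNA was extracted with Trizol, per the labels. How reads were aligned and counted, and with what annotation and strand setting, is not given in the sources used here. Overlapping genes and near-identical copies are therefore uncertain. Coordinates, exonic lengths and sequences came from GENCODE M21 (GRCm38, the assembly behind mm10), which holds 54495 of the 54532 identifiers.

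Groups came from the sample titles. The filterByExpr step kept 14324 genes, all 7 members among them. Counts were fitted in edgeR 4.0.16 (R 4.3.3) by quasi-likelihood with trimmed-mean (TMM) scaling and 1 mean per group over all 12 libraries, and adjusted by Benjamini-Hochberg over those genes. SE is the log2 change over the root of F. CPM per kb divides by exonic length, that of all annotated exons of a gene joined. Where a group had no count, 3 counts over the group served as the floor, and intervals are at 95%. The steps were tested on simulated data. Between succinate and control mice without LPS, same-numbered libraries deviated together, with correlations of 0.260, 0.116 and 0.198, each above a limit of 0.1 for pairing. In both groups replicate 1 was of the low library class and replicates 2 and 3 of the high class. The part of the class in these correlations was not tested, and the labels tie no number to a batch or animal. The main fit was therefore unpaired, with the replicate number as a block among the alternatives. Ratios between groups had exact two-sided permutation tests.

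The members and 15 lists (8 of pathway genes, 7 of cell type markers) were chosen with earlier results of these data known. The text names every member, up to 4 genes of each pathway list with the smallest p in the LPS comparisons, and the 3 genes nearest to each member except Csf2. Alternatives were no filter, a stricter one (1 CPM or more in 6 libraries), RLE scaling, library size alone, DESeq2 1.42.0, limma-voom 3.58.1, the compared groups alone, the replicate number as a block, the library class as a covariate and each library left out, which with the main fit makes 22 settings.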

Additional observations from a re-analysis of the deposited data

How the results depend on the processing

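Over the alternatives, 101 counts of members called were equal or close to the main count, and 10 moved further. A loss or gain of 1 call among 4 was not taken as a move. Of the values of single members, 679 kept their direction and side of the threshold or, for mean CPM, stayed within the SD. Another 14 gained a call, 12 lost one and 54 changed sign. Behind the count for LPS in succinate mice, 4 in the text, the Csf2rb call was made in 15 of 22 settings. The count for succinate with LPS, 0 in the text, was 3 with no filter, 1 with the stricter filter, 1 with the replicate block, 1 with the library class covariate, 1 with DESeq2, 1 with limma-voom, and 0 to 2 with 1 library left out, with Csf2ra among those called in each setting that called any. The count for LPS in control mice, 4 in the text, was 2 within the low class and 2 within the high class, fits that were chosen after seeing the data. The cause was not tested. The replicate block moved only the succinate count with LPS, from 0 to 1 member (Csf2ra, -0.53, adjusted p = 0.0442), and it changed no other count. In the LPS comparisons and between succinate and control mice with LPS, same-numbered libraries had correlations of deviations from -0.129 to 0.377, with at least 1 pair below 0.1 in each, and 6 of 12 libraries correlated best with their own number.

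The sign changes were mostly in Csf3r, whose LPS differences are near 0. In succinate mice its difference was 0.022 with no filter, 0.019 with the stricter filter, 0.013 with RLE scaling, 0.00048 with library size alone, 0.0037 with the replicate block, 0.12 with the class covariate, 0.015 with the compared groups alone, 0.013 with DESeq2, 0.0065 with limma-voom, 0.22 in the low class and -0.10 to 0.16 with 1 library left out. In control mice it was -0.0084 with no filter, -0.078 with library size alone and -0.037 to 0.089 with 1 left out. Its interaction was 0.03016 with no filter, 0.0011 with RLE scaling, 0.078 with library size alone, 0.055 with the class covariate, 0.00105 with DESeq2, 0.00039 with limma-voom, 0.14 in the low class and -0.10 to 0.16 with 1 left out. Csf1r in control mice was 0.036 in the low class. Csf3 without LPS was -0.38 in the low class and -0.44 to 1.06 with 1 library left out, and with LPS -0.10 to 0.57. Csf2ra with LPS in succinate mice was -0.017 to 0.105 with 1 left out. Interactions with 1 left out were -0.30 to 0.14 for Csf1, -0.85 to 0.65 for Csf3 and -0.39 to 0.058 for Csf1r.

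Csf2 gave no value under the stricter filter or with the compared groups alone in control mice, neither Csf2 nor Csf3 did with the compared groups alone between unstimulated cells, and DESeq2 gave no adjusted p for Csf2 between the LPS groups. The high class holds no succinate library with LPS. Depth limits Csf2 most, at 82 counts in succinate libraries with LPS and 26 in control libraries with LPS.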
